A study of Mus musculus with 8 samples.

Results

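The genes described here encode the nuclear subunits of the mitochondrial respiratory chain and of ATP synthase. They were chosen by name: every gene whose platform symbol began with Nduf and a subunit letter and number, Sdha to Sdhd, Uqcr, Cox4 to Cox8 or Atp5. The rule found 79 of the 16593 genes with 1 symbol on the array, with 98 of its 25697 probes. Of these, 71 had a probe detected (detection p under 0.05) on at least 4 of the 8 arrays and were tested, among 8830 genes in all. The arrays were Illumina MouseRef-8 v2.0 bead arrays, 1 per clone, hybridized with total RNA of epiblast cells made from V6.5, a mouse embryonic stem cell line. All cells had been without LIF and without 2i (inhibitors of GSK3 and MEK) for 3 days. The 4 wildtype arrays came from subclones of the V6.5 line labelled GRHL2 wildtype and the 4 knockout arrays from clones labelled GRHL2 knockout. GRHL2 is a grainyhead-like transcription factor of epithelial cells, and the comparison asks how its loss changes expression after exit from the naive state. The labels do not say how the gene was deleted or whether the clones were grown side by side. P-values therefore measure the spread between these arrays, in which differences of clone, of culture and of hybridization are mixed and cannot be told apart.

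Complex I (NADH dehydrogenase) and complex II (succinate dehydrogenase) pass electrons to ubiquinone, complex III passes them to cytochrome c, and complex IV (cytochrome c oxidase) hands them to oxygen. Complexes I, III and IV pump protons, and complex V (ATP synthase) uses the gradient to make ATP. Most subunits are encoded in the nucleus and a few core ones in mitochondrial DNA, so both genomes supply parts of complexes I, III, IV and V. Pluripotent cells rely more on glycolysis after they leave the naive state, and cytochrome oxidase activity is known to be lower in the primed state.

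On the scale used here, values are log2 intensities after background correction and quantile normalization, and a change is knockout minus wildtype. The arrays differed in brightness before normalization. The 4 wildtype arrays had a mean intensity over all probes of 703 ± 32.4 and the 4 knockout arrays one of 508 ± 51.5 (SD). The probes that stood for the tested members averaged 6789 ± 347 and 5143 ± 652 (SD, n = 4 each), so knockout held 75.7% of the wildtype intensity for the members and 72.3% for all probes. Directions below are therefore relative to all genes: with no normalization between arrays, the median change of all genes was -0.58 and that of the members -0.47, and with median scaling of all probes they were -0.35 and -0.24. Bulk arrays cannot tell fewer cells that express a gene from less RNA per cell. Grhl2, the targeted gene, averaged 8.84 ± 0.60 in wildtype and 7.71 ± 0.43 in knockout, a difference of -1.13 (limma adjusted p = 0.0369) that lost its call without 6 of the single arrays, with adjusted p up to 0.0816. Its probe was still detected on all 4 knockout arrays, at 45.6% of the wildtype level, and the labels do not place it relative to the deleted part. All 6 epiblast markers were detected (Pou5f1, Sox2, Fgf5, Otx2, Dnmt3b and Utf1). Utf1 was higher in knockout (0.46, limma adjusted p = 0.019), and the others did not pass, with Sox2 at 0.51 and Otx2 at -0.57. Of the 7 trophoblast markers, Cdx2, Elf5 and Hand1 were detected on too few arrays to be tested, and Krt8 and Krt18 fell. Eomes (-0.59) and Gata3 (-1.27) were also tested and did not pass. The summed linear level of the tested trophoblast markers was 1910 to 8473 in wildtype and 582 to 972 in knockout. Krt8 and Krt18 were highest on wildtype array 3, at 12.49 and 11.27. On the other wildtype arrays they were 10.20 to 10.47 and 8.93 to 9.16. None of the 6 endoderm markers and 2 of the 7 fibroblast markers on the array were tested, and neither of those 2 passed. The part of these marker differences in the results below was not tested.

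In knockout, Cox6c fell to 37.2% of its wildtype level, while Atp5g1, Atp5pb, Ndufa6, Ndufv3, Cox8a, Cox6b1 and Uqcrc1 rose by 1.27-fold to 1.43-fold. Ndufb11, read by a dim probe, was 1.77-fold higher, a call lost with no background correction, where its log2 change was 0.26. Cox7a2 and Atp5c1 fell by less, 1.34-fold and 1.32-fold. In all, 11 of the 71 tested members changed (15.5%), against 13.7% of all 8830 genes (limma, adjusted p under 0.05). This share was close to the background. Of the 11, 8 were higher (11.3%, against 6.55% of all genes) and 3 lower (4.23%, against 7.17%). With no normalization between arrays or with median scaling the split turned: 0 members were then higher and 42 or 19 lower (59.2% or 26.8%). Of all genes 65.4% or 40.8% were then called, 36 or 133 of them higher and 5735 or 3474 lower. The median change of the members was 0.08 and that of all genes 0.01. Most changes were small, with 53 of the 71 members (74.6%) within 0.3 of 0, against 62.3% of all genes.

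**Figure D1:**
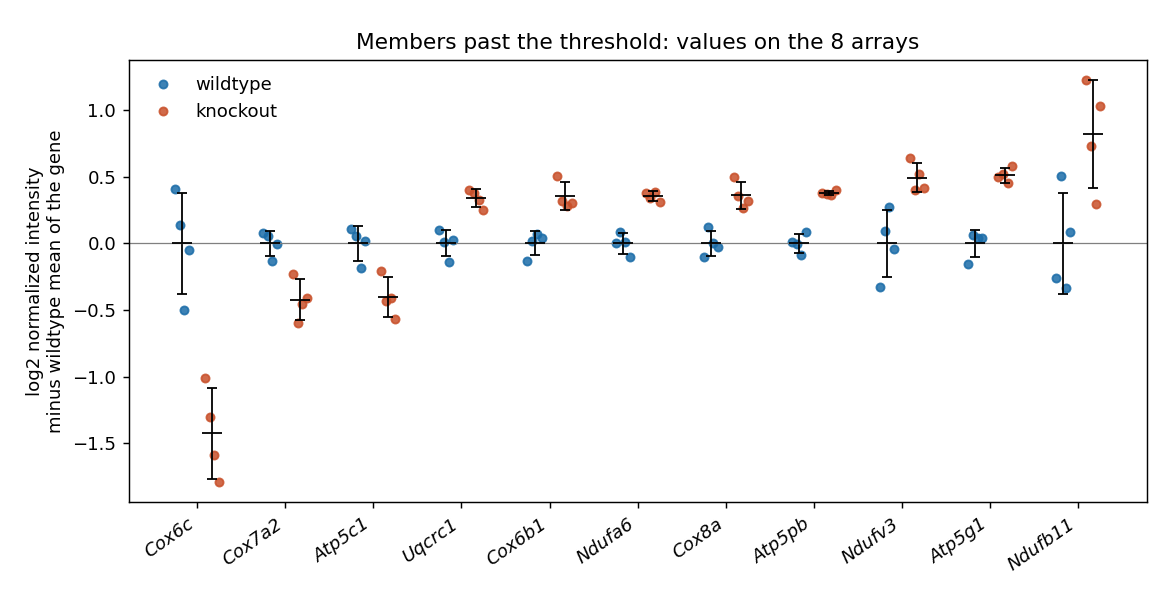
Log2 normalized intensity of the 11 members past the threshold on each array, minus the wildtype mean of that gene; points are arrays (4 wildtype, 4 knockout), horizontal ticks are group means and bars are SD. The groups do not overlap for 10 of the 11 genes, Ndufb11 being the exception, and Cox6c lies farthest from 0.

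The members were bright as a group: 56 of the 71 were among the 2208 brightest of the tested genes. Of those 2208 genes 13.4% changed, 6.25% higher and 7.16% lower, and 9 of the 56 members (16.1%) did, 7 higher and 2 lower. The 56 bright members had a median change of 0.09 with 40 above 0 (71.4%), and the 15 others a median of -0.05 with 7 above 0 (46.7%). Across the 71 members, which are not independent replicates and share the same arrays, the correlation of mean level with change was r = 0.04 (Spearman 0.03), and over all 8830 genes it was 0.01 (Spearman 0.01). Quantile normalization gives every array the same distribution of values. A correlation near 0 over all genes is therefore largely set by that step.

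**Figure D2:**
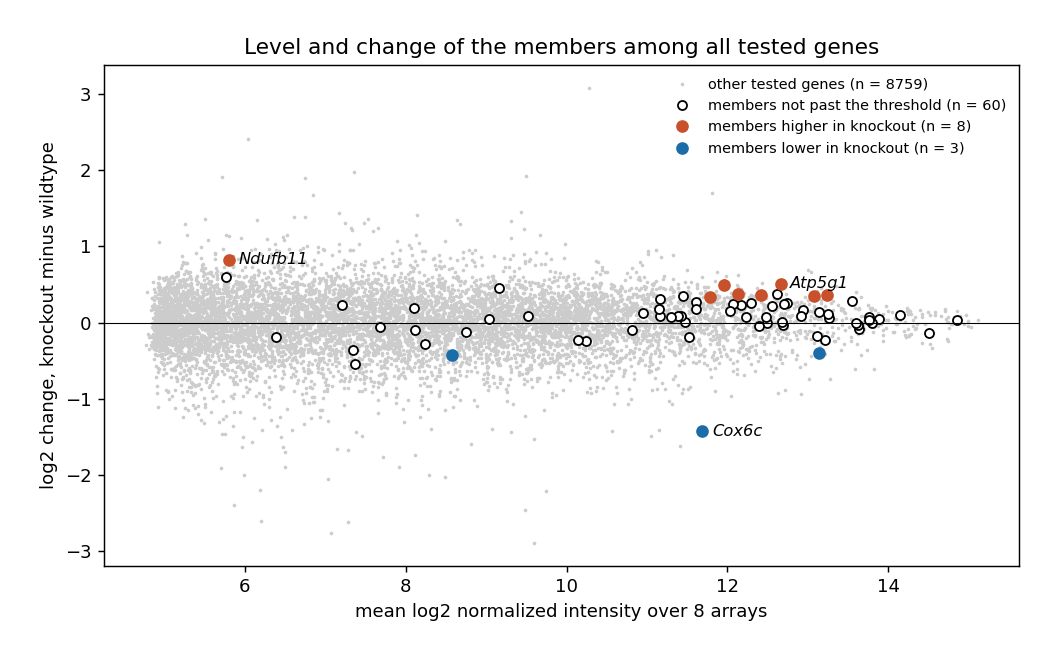
Mean log2 normalized intensity over the 8 arrays (x axis) against log2 change, knockout minus wildtype (y axis), for all tested genes (grey) and the 71 members (open, not past the threshold; orange, 8 higher; blue, 3 lower). Most members lie at the bright end and near 0, with Cox6c at -1.43 apart from them.

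The upstream sequences of 4 members are printed to show what the members shared and did not share. The windows are the 250 bases before the annotated gene start in RefSeq (GRCm38.p6), which listed one for 64 of the 79 members and for 10 of the 11 changed ones, all but Cox6c. Capitals mark matches on either strand to the letters searched, which were the NRF1 motif (seen at 2 places in the Cox6a1 window), CCGGAAG for ETS factors such as GABPA, AAGATGGCG for YY1, CCAAT for NF-Y and AACNNGTT for grainyhead factors. NRF1 and GABPA are known regulators of respiratory chain genes. Atp5g1 had the largest rise of the changed members other than the dim Ndufb11, Cox7a2 the second largest fall past the threshold, Cox6a1 held NRF1, ETS and CCAAT letters together, and Atp5d was the only member with grainyhead letters.
Atp5g1 (chr11:96075632-96075881, minus strand): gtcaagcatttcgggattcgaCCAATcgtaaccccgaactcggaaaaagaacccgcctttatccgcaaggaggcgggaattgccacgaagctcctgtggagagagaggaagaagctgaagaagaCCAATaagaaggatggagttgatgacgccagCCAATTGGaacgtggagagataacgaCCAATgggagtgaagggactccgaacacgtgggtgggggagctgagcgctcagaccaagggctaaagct
Cox7a2 (chr9:79759854-79760103, minus strand): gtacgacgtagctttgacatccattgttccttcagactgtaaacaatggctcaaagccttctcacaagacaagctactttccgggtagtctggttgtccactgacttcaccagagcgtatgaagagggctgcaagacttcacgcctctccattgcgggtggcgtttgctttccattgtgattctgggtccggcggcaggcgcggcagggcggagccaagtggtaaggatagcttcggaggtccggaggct
Cox6a1 (chr5:115348959-115349208, minus strand): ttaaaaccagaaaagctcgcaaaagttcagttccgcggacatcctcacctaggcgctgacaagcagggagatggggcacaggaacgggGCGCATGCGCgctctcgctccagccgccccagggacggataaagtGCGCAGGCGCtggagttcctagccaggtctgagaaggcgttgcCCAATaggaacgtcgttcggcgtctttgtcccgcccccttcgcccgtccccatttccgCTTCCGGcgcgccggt
Atp5d (chr10:80142025-80142274, plus strand): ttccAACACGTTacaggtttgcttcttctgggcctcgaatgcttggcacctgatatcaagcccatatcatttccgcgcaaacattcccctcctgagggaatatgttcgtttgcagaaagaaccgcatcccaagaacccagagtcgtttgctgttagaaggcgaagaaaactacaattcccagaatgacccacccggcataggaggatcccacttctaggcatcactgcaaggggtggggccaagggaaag

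The NRF1 letters were in 9 of the 64 member windows (14.1%), against 3.86% of the 27025 windows of all genes, and the ETS letters in 11 (17.2%, against 7.05%). CCAAT was in 28 (43.8%, against 34.5%), the YY1 letters in 0 (against 0.607%) and the grainyhead letters in 1 (1.56%, against 3.63%). Where a gene had several windows, the first listed was used. The window of Atp5g1 held CCAAT 5 times, with 2 of the matches overlapping on opposite strands, and that of Cox7a2 held none of the letters. The grainyhead letters of Atp5d began 246 bases before the start. Atp5d, the delta subunit of the rotating stalk of ATP synthase, was 10.89 ± 0.09 in wildtype and 11.01 ± 0.10 in knockout and did not pass (0.12, limma adjusted p = 0.45). Among the 10 changed members with a window, 0 held the NRF1 letters and 1, Cox6b1, the ETS letters. A match is a run of letters and was not read as a bound site.

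Complex IV held the largest fall of any member. Cox6c, a small nuclear-encoded subunit, was 12.81, 12.54, 11.91 and 12.35 on wildtype arrays 1 to 4 and 11.39, 11.10, 10.81 and 10.61 on knockout arrays 1 to 4. All knockout arrays lay below all wildtype arrays, and before normalization the intensities were 4511 to 8811 in wildtype and 1084 to 2604 in knockout. The change was -1.43 (SE 0.22, limma adjusted p = 0.00615), a 2.69-fold fall. Only 35 of the 8830 genes fell further, 3 of them among the 2208 brightest. The call of Cox6c held without any single array (log2 change -1.60 to -1.30, adjusted p up to 0.0236), with the clone number as a block, and with no normalization between arrays. Relative to all genes the change was then -1.49.

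Cox6c and Grhl2 lie on the same chromosome, 15, with 11 protein-coding genes between them in the RefSeq gene table (GRCm38.p6). These neighbours were looked at after the values were seen. Of the 11, 6 were tested and 0 changed (limma, adjusted p under 0.05), though 2 of them were near the threshold: Polr2k, an RNA polymerase subunit, was at -0.58 (adjusted p = 0.0587) and Spag1 at -0.59 (0.0772). Rnf19a was at 0.39, Ywhaz at -0.23, Pabpc1 at -0.18 and Ankrd46 at -0.13. Of the 5 genes beyond Cox6c on the other side from Grhl2, 3 were tested. Nipal2, a magnesium transporter family gene, fell by 1.29 (adjusted p = 0.00155), Osr2 was at -0.58 (adjusted p = 0.0681) and Kcns2 at 0.27. Beyond Grhl2, Rrm2b was the 1 gene of 5 tested, at -0.27. The 366 tested genes of chromosome 15 had a median change of 0.07, with 29 higher and 19 lower. Whether the fall of Cox6c is tied to its place near Grhl2 was not tested.

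Of the 15 tested genes of complex IV, Cox7a2l counted among them, 2 were higher and 2 lower, where 6.55% of all genes were higher and 7.17% lower. Cox6c was 1 of the 2 lower, and the other fitted changes were smaller than that of Cox6c. Cox7a2, the common isoform of subunit 7a, was 8.87, 8.85, 8.66 and 8.78 in wildtype and 8.56, 8.19, 8.33 and 8.38 in knockout. The groups did not overlap, knockout array 1 being the nearest, and the change was -0.42 (SE 0.11, limma adjusted p = 0.0364). Cox8a, the common isoform of subunit 8, was 12.96, 13.19, 13.07 and 13.04 in wildtype and 13.56, 13.42, 13.33 and 13.38 in knockout, all higher than wildtype (0.36, SE 0.10, limma adjusted p = 0.0450). Cox6b1, the common isoform of subunit 6b, averaged 12.89 ± 0.09 in wildtype and 13.25 ± 0.10 in knockout without overlap, a rise of 0.35 (limma adjusted p = 0.0479). Its other retained probe was also higher without passing (0.23). The brightest complex IV members did not pass: Cox7c was 14.10 ± 0.08 and 14.20 ± 0.04, and Cox4i1, the common isoform of subunit 4, was 13.80 ± 0.12 and 13.79 ± 0.08 (SD, n = 4 each), the 2 groups overlapping for both. Cox7b had the second lowest fitted change of the complex (-0.55, adjusted p = 0.0907), Cox5a was at -0.17 and Cox5b at 0.07. Ndufa4, first named for complex I and now placed in complex IV, was 13.68 ± 0.20 and 13.60 ± 0.03 (SD, n = 4 each).

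Several complex IV subunits have isoforms known from other tissues, and most of these were dim or not detected. The heart and muscle isoform Cox8b, the lung isoform Cox4i2 and the testis isoform Cox7b2 were detected on none of the 8 arrays. Cox6a2, the heart and muscle isoform of subunit 6a, was detected on 0 wildtype and 2 knockout arrays and was not tested. Its values were 4.31 to 4.51 in wildtype and 4.80 to 5.56 in knockout. The authors' deposited table gave it a log2 fold change of 0.21 with an adjusted p of 0.0424, over all probes whether detected or not. Cox7a1, the heart and muscle isoform of subunit 7a, was detected on all arrays and was 7.71 ± 0.25 and 7.65 ± 0.18. The testis isoforms Cox6b2 (0.45, adjusted p = 0.133) and Cox8c (0.60, adjusted p = 0.0838) did not pass, and their groups overlapped. Cox6a1, the common isoform of subunit 6a, was 12.58 ± 0.07 and 12.82 ± 0.06 (SD, n = 4 each) without overlap and did not pass (0.24, adjusted p = 0.109). Cox7a2l, a supercomplex assembly factor related to subunit 7a, was 11.46 ± 0.07 and 11.47 ± 0.20.

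Complex V held 2 rises and 1 fall among 15 tested genes, where 6.55% of all genes rose and 7.17% fell. Atp5g1, 1 of 3 genes that encode the same mature subunit c of the rotating ring, was 12.25, 12.47, 12.45 and 12.45 in wildtype and 12.90, 12.92, 12.86 and 12.99 in knockout. All knockout arrays were higher, by 0.51 in the mean (SE 0.10, limma adjusted p = 0.0134), 1.43-fold. The call held without any single array (adjusted p up to 0.0398) and with the clone number as a block. With no normalization between arrays the change was -0.03, which was 0.54 above the median of all genes. Atp5b, which did not pass, was 0.42 above that median in the same setting. Atp5g2 averaged 11.27 ± 0.12 and 11.62 ± 0.13 (SD, n = 4 each; 0.35, adjusted p = 0.062), also without overlap. Atp5g3, the brightest of the 3, was 14.59, 14.56, 14.53 and 14.63 in wildtype and 14.45, 14.44, 14.45 and 14.42 in knockout. Its groups did not overlap either, in the opposite direction, and the difference did not pass (-0.14, adjusted p = 0.304). Relative to the median of all genes Atp5g3 was at -0.15, but at 0.18 with no normalization between arrays or with median scaling.

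The unequal change within the subunit c genes was tested by the within-array difference of their values. The change of Atp5g1 minus that of Atp5g3 was 0.65, and the change of Atp5g2 minus that of Atp5g3 was 0.49, so that the values of both dimmer genes lay closer to Atp5g3 in knockout (exact two-sided permutation p = 0.0286 for each, the smallest that 70 assignments can give, and 0.1 after adjustment over 7 isoform pairs). Neither passed after adjustment. Both differences were smaller without quantile normalization. The changes of Atp5g1, Atp5g2 and Atp5g3 were then -0.03, -0.29 and -0.40 with no normalization between arrays. With median scaling they were 0.20, -0.06 and -0.17. The change of Atp5g1 minus that of Atp5g2 was 0.16 (exact permutation p = 0.143). Of the other 4 pairs, read as the change of the first minus that of the second, Cox7a2 against Cox7a2l was at -0.43 and Cox7a1 against Cox7a2 at 0.37 (exact permutation p = 0.114 for each), Cox8a against Cox8c at -0.24 (0.4) and Cox6b1 against Cox6b2 at -0.10 (0.771).

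Atp5pb, subunit b of the peripheral stalk, was 11.95, 11.94, 11.85 and 12.03 in wildtype and 12.32, 12.31, 12.30 and 12.34 in knockout. The knockout arrays were nearly level and all above wildtype (0.38, SE 0.09, limma adjusted p = 0.0277). Atp5c1, the gamma subunit that turns inside the catalytic head, was 13.45, 13.40, 13.16 and 13.36 in wildtype and 13.14, 12.91, 12.94 and 12.77 in knockout. Wildtype array 3 and knockout array 1 nearly touched, and the fall of 0.40 (SE 0.12, limma adjusted p = 0.0471) was just past the threshold. Atp5b, the catalytic beta subunit and the brightest member of all, averaged 14.84 ± 0.03 and 14.87 ± 0.02 (SD, n = 4 each; 0.03, adjusted p = 0.836). The other tested members of complex V ranged from -0.24 (Atp5a1, the alpha subunit) to 0.23 (Atp5e), apart from the subunit c genes. Atp5k was detected on no array.

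Complex I held 3 rises and 0 falls among 31 tested genes, where 6.55% of all genes rose and 7.17% fell. Its median change was 0.14, and 22 of the 31 changes were above 0, against 51.4% of all genes. Ndufv3, an accessory subunit beside the NADH-binding core, was 11.38, 11.80, 11.99 and 11.67 in wildtype and 12.35, 12.11, 12.23 and 12.13 in knockout. Wildtype array 3 was the nearest to the knockout arrays, and the rise was 0.49 (SE 0.14, limma adjusted p = 0.0438). Its other 2 retained probes had like changes, 0.46 and 0.48. Ndufa6, an accessory subunit, was 12.25, 12.33, 12.25 and 12.15 in wildtype and 12.63, 12.59, 12.63 and 12.55 in knockout, with all knockout arrays higher (0.36, SE 0.09, limma adjusted p = 0.0356).

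Ndufb11, an accessory subunit encoded on the X chromosome, was 5.13, 5.89, 5.06 and 5.48 in wildtype and 6.61, 6.12, 5.68 and 6.42 in knockout. Its groups overlapped, since knockout array 3 lay below wildtype array 2. The rise of 0.82 (SE 0.23, limma adjusted p = 0.0460) rested on a dim probe, with raw intensities of 154 to 200 on all 8 arrays. With no background correction the change was not past the threshold. The brightest complex I members did not pass: Ndufa13 was 13.65 ± 0.14 and 13.61 ± 0.10, and Ndufs6 was 13.40 ± 0.08 and 13.69 ± 0.02 (SD, n = 4 each; 0.29, adjusted p = 0.0689) without overlap. Ndufv1, which holds the NADH-binding site, was 12.43 ± 0.19 and 12.80 ± 0.04 (SD, n = 4 each; 0.38, adjusted p = 0.0565). The median changes within complex I were 0.14 over 8 genes of the NADH-oxidizing module, 0.08 over 6 of the ubiquinone-binding module and 0.15 over 17 of the membrane arm. Ndufs1, the large iron-sulfur core subunit, was detected on no array.

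Probes of 1 gene disagreed in sign for 4 of the 11 members with more than 1 retained probe, Ndufs4, Ndufa5, Ndufb6 and Atp5j. Ndufs4, an accessory complex I subunit, had 4 retained probes with changes of 0.07, -0.22, -0.29 and -0.73 in order of brightness. The dimmest read 10.76, 10.50, 9.95 and 10.46 in wildtype and 10.07, 9.67, 9.70 and 9.31 in knockout, and only this one passed when every probe was tested by itself (limma adjusted p = 0.0403 over all probes). Over all retained probes 13.2% passed, and 9 of the 85 retained member probes (10.6%) did. Which transcripts each Ndufs4 probe reads was not tested.

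Of the tested genes of complex III 1 of 6 passed, and of complex II 0 of 3, where 13.7% of all genes did. Uqcrc1, a core subunit of complex III, was 11.71, 11.63, 11.48 and 11.64 in wildtype and 11.86 to 12.02 in knockout. All knockout arrays were higher (0.34, SE 0.10), and with an adjusted p = 0.0486 (limma) it was the member nearest inside the threshold. The other 5 tested members of complex III lay between -0.00455 and 0.0923; the brightest, Uqcr10, was 13.87 ± 0.03 and 13.91 ± 0.07, and Uqcrh, the hinge subunit, was 13.60 ± 0.09 and 13.60 ± 0.03 (SD, n = 4 each). Uqcrfs1, the Rieske iron-sulfur subunit, was detected on 2 wildtype and 0 knockout arrays and Uqcrq on none, and neither was tested. In complex II, Sdhb, the iron-sulfur subunit, was 10.25 ± 0.15 and 10.03 ± 0.30, and the membrane anchor Sdhc was 11.01 ± 0.38 and 11.31 ± 0.09 (SD, n = 4 each). Sdhd, the other anchor, was at -0.28 (adjusted p = 0.256). None of the 3 passed. The rule also took in Ndufs5-ps, annotated as a pseudogene of Ndufs5, which was 10.87 ± 0.13 and 10.77 ± 0.06. Its near-identical parent gene could share its signal.

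**Figure D3:**
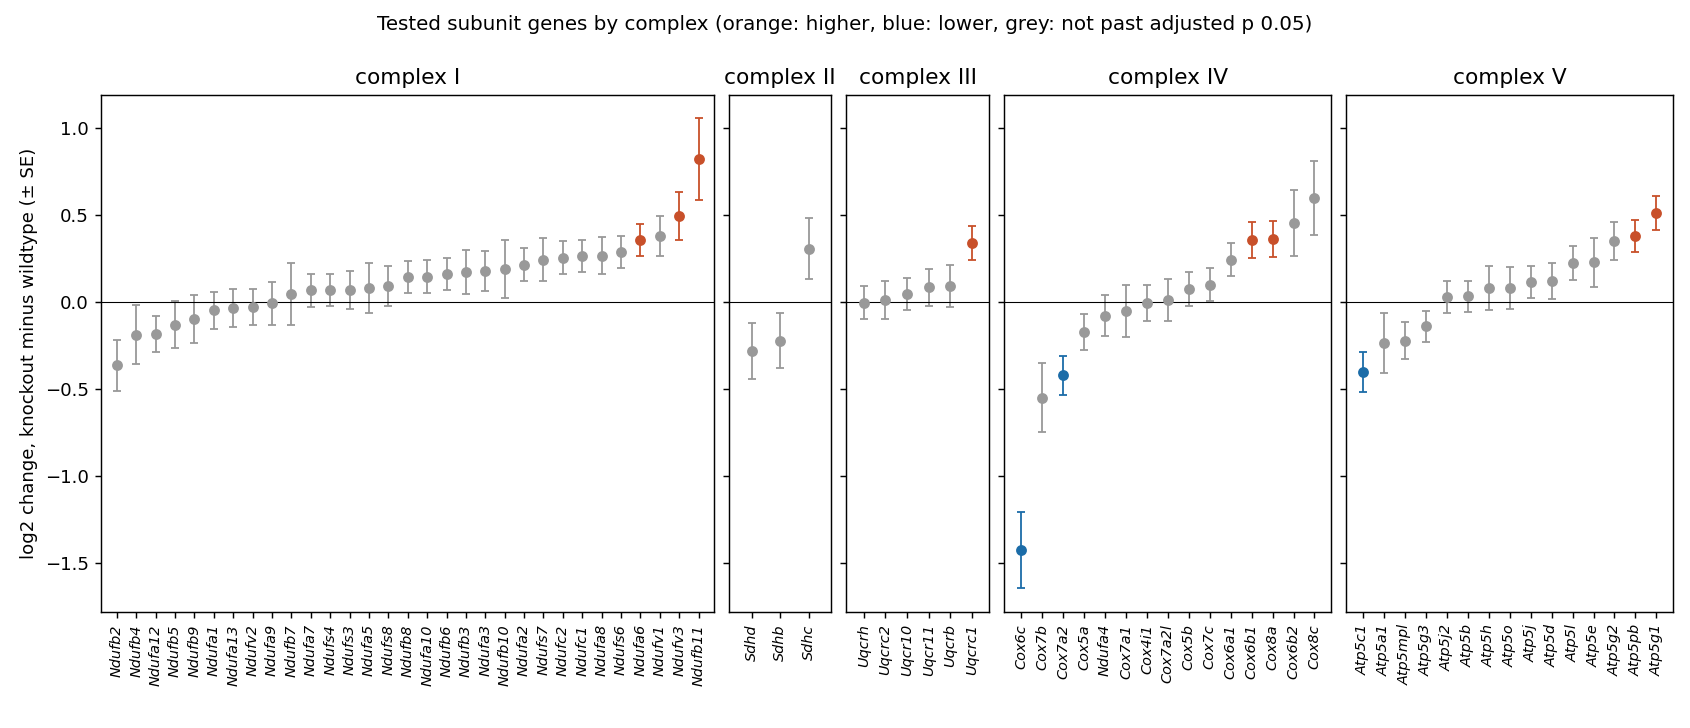
Log2 change, knockout minus wildtype, of the 70 tested members placed in complex I to V, sorted within each. The assembly factor Cox7a2l is shown with complex IV, and bars are moderated SE from the fit over all genes. Orange points are higher and blue points lower at an adjusted p under 0.05; complex IV spans the widest range, from -1.43 to 0.60.

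Beyond the changed genes, 12 members had groups that did not overlap without passing the test, 11 higher and 1 lower. In all 22 of the 71 tested members did not overlap (31%, against 23.2% of all genes), 18 higher (25.4%, against 12.4%) and 4 lower (5.63%, against 10.8%). At an unadjusted p under 0.05 there were 24 (33.8%), against 32% of all genes. The authors' deposited table, whose values had no background correction, called 21 of these 71 members (29.6%, against 18.2% of the 8830 probes that stood for the genes), 17 higher and 4 lower. It called 10 of the 11 members changed here with the same sign, all but Ndufb11 (authors' adjusted p = 0.13).

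The calls rested on small margins. Cox6c and Atp5g1 kept theirs without any single array, and the other 9 lost it without 5 to 8 of the 8 arrays, with adjusted p up to 0.113. Calls over all genes moved too: without 1 array 5.87% to 16.6% of all genes were called, against 13.7% with all 8. The members' share was then 2.82% to 14.1%, against 15.5%. The mean intensity of the arrays separated the groups, at 668 to 744 in wildtype and 447 to 571 in knockout. A fit with it as a covariate can therefore hardly tell genotype from brightness. In that fit 0 members and 0.181% of all genes passed. The change of Cox6c was then -0.43, that of Atp5g1 0.38 and that of Atp5c1 0.08.

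Wildtype array 3 and knockout array 1 stood apart by chromosome, and members lay on both chromosomes concerned. On wildtype array 3, all 4 tested members of chromosome 6 exceeded the mean of wildtype arrays 1, 2 and 4. Their median excess was 0.38, while the 67 members elsewhere had a median of -0.09. All 428 tested genes of chromosome 6 had a median of 0.40. Ndufa5, an accessory complex I subunit, was 12.61 there and 11.97 to 12.14 in the rest of its group, and Ndufa4 was 13.97 against 13.52 to 13.67. Without that array the change of Ndufa5 went from 0.08 to 0.22 and that of Ndufa4 from -0.08 to 0.02, and neither passed. Ndufa9 and Ndufb2 were the other 2, with deviations of 0.36 and 0.29.

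On knockout array 1, the 3 tested members of chromosome 8 were below the other knockout arrays. Ndufb7, an accessory complex I subunit, was 8.49 there against 9.16 to 9.40, Cox4i1 was 0.16 lower and Ndufa13 0.11 lower, while the 68 members elsewhere had a median of 0.09. The median of the 3 on chromosome 8 was -0.16, and that of all 492 tested genes there was -0.43. Without that array the change of Ndufb7 went from 0.05 to 0.24 (adjusted p = 0.165). With both arrays left out 8 members changed, 4 higher and 4 lower (11.3%, against 20.4% of all genes), 6 of them among the 11. Cox6c was then at -1.73 (limma adjusted p = 0.00301) and Atp5g1 at 0.53 (0.0172).

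**Figure D4:**
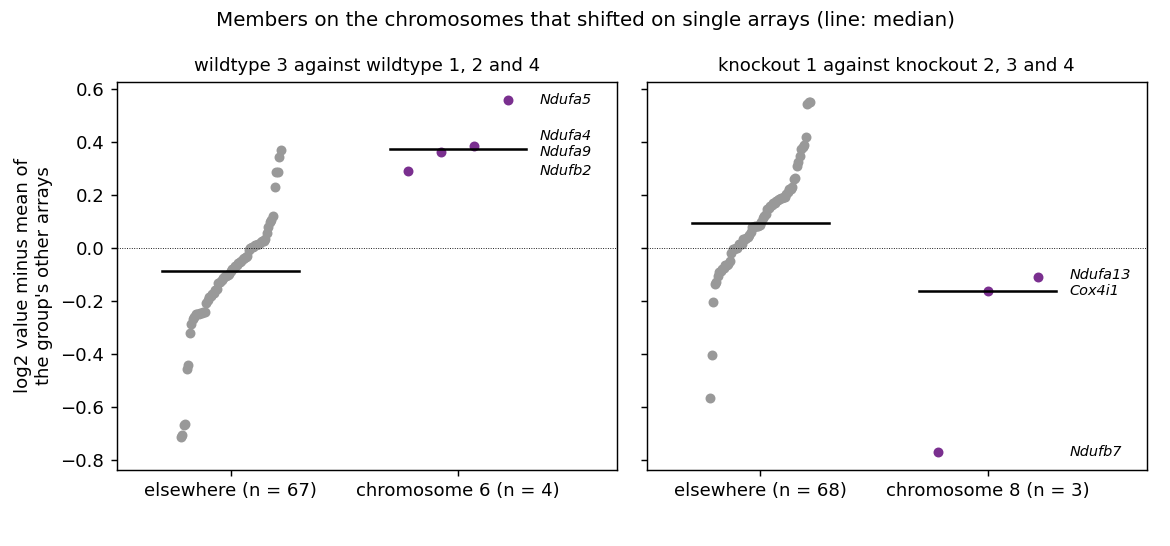
Log2 value on the array that stood apart minus the mean of the other arrays of its group, for each tested member; left, wildtype array 3 by chromosome 6 or elsewhere, right, knockout array 1 by chromosome 8 or elsewhere; lines are medians. The 4 members of chromosome 6 lie at 0.29 to 0.56 and the 3 of chromosome 8 at -0.77 to -0.11.

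Genes that serve the chain without matching the name rule were read from 5 lists, whose shares of changed genes stand against 13.7% of all genes. Of 34 tested assembly factors 1 rose and 2 fell (8.82%). Ndufaf4, a complex I assembly factor, averaged 11.06 ± 0.27 in wildtype and 10.35 ± 0.19 in knockout, a fall of 0.71 (limma adjusted p = 0.0200), and Ndufaf7 rose by 0.43 (adjusted p = 0.0462). Cox18, which inserts a complex IV core subunit into the membrane, fell by 0.51 (adjusted p = 0.0415), while its other probe was at 0.33 (adjusted p = 0.15). Of 17 tested regulators 2 fell and 0 rose (11.8%). Nrf1, on chromosome 6, was at 0.53 and just outside the threshold (limma adjusted p = 0.0527). Its wildtype values were 9.61 on array 3 and 8.90 to 9.33 on the others. Tfam, which packages and transcribes mitochondrial DNA, was 10.60, 10.45, 10.25 and 10.31 in wildtype and 9.95, 9.98, 9.93 and 9.77 in knockout. All knockout arrays were lower (-0.49, SE 0.11, limma adjusted p = 0.0224), and its other probe also fell (-0.54, adjusted p = 0.0336 over all probes). Mterf3, a regulator of mitochondrial transcription and ribosome assembly, fell by 0.56 (adjusted p = 0.0356).

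Of 15 tested citric acid cycle and pyruvate dehydrogenase genes 1 fell (6.67%), Pdha1, the X-linked alpha subunit of pyruvate dehydrogenase, by 0.51 (limma adjusted p = 0.0226). Of 7 tested carrier and outer membrane genes 0 passed. Among 4 tested subunits and carriers that the name rule left out 1 changed (25%). Cycs, cytochrome c, fell by 1.13 (adjusted p = 0.0111) on a dim probe detected on 4 wildtype and 2 knockout arrays. The size of that fall moved with the background step, to -0.32 with none and -0.61 with normexp at an offset of 50. Its other retained probe, about as dim, was at -0.01, and stood for the gene when wildtype array 1 was left out (-0.13). Cyc1, the cytochrome subunit of complex III, was 12.04 ± 0.19 and 12.17 ± 0.09, and Atpif1, the inhibitor of ATP synthase, was 14.21 ± 0.10 and 14.21 ± 0.08 (SD, n = 4 each). Each of the calls in these lists was lost without at least 1 array.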

How the data were processed

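The deposited scanner summary gave, per the file headers, an average intensity per probe with its bead error, bead count and detection p-value for 8 arrays. From the values, the authors deposited these intensities without background subtraction or normalization. The authors' deposited log2 table equalled quantile-normalized log2 intensity, and their comparison table gave log2 fold changes, p-values and 2 scores, t and log odds. The submitters' processing notes name limma. The series value table was identical to the log2 table.

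Background correction and quantile normalization used neqc (offset 16) from limma 3.58.1 in R 4.3.3. A probe was retained where 4 or more arrays had a detection p below 0.05, and the brightest stood for a gene. Groups came from the genotype label. Knockout was compared with wildtype by limma over 8830 genes, two-sided, with Benjamini-Hochberg adjustment. The number of arrays limits precision; the median bead standard error of the members' probes was 2.27% to 5.7% of the signal. Symbols came from the platform annotation, and all 79 members were found in the RefSeq table by Entrez identifier. The members and lists were chosen with earlier results of these data known. Named were members past the threshold, the 2 brightest of each complex, isoform pairs and members that are no subunit, up to 4 changed genes of each other list, and Grhl2; others are given for completeness or were chosen after their values were seen. Simulated data had the means and spreads of the 8830 genes, independent noise for each gene, and 100 genes changed at each of 2 sizes. There the knockout against wildtype fit recovered 29% of log2 changes of 0.5 and 84% of those of 1, with 6.61% of calls false. Errors that genes share on an array were not simulated, and 13.7% of genes were called in the data. These rates therefore do not carry over directly. Clone numbers did not pair arrays. No pair of arrays held identical intensities. Alternatives covered background, normalization, filter, probe choice, moderation, weights, brightness, block, threshold and arrays left out.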

Additional observations from a re-analysis of the deposited data

Results flagged for a closer look

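On 4 of 58 sets of 4 arrays (29 named members in each group), 1 array lay far from the other 3. Chance gives about 1 in 20. Sdhc read 10.45 on wildtype array 1 against 11.16 to 11.22 on the others, and without that array its change was not past the threshold either. Atp5g1 read 12.25 on wildtype array 1 against 12.45 to 12.47. Uqcr10 read 13.82 on wildtype array 3 against 13.88 on the others. Cox7a2l read 11.17 on knockout array 1 against 11.55 to 11.60.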

How the results depend on the processing

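The 8 higher and 3 lower members were 15.5% of those tested, against 13.7% of all genes. They became 16 and 3 on the authors' deposited log2 table or without background correction (26.8%, against 16.5% of all genes). With a variance trend and robust moderation together they became 15 and 4 (26.8%, against 17.6%), and at a threshold of 0.1 they became 14 and 4 (25.4%, against 24%). Without wildtype array 3 and knockout array 1 they became 4 and 4 (11.3%, against 20.4%). With no normalization between arrays they became 0 higher and 42 lower (59.2%, against 65.4%), and with median scaling 0 and 19 (26.8%, against 40.8%). With array brightness as a covariate they became 0 and 0 (limma, all genes then having 6 higher and 10 lower calls). The clone number as a replicate block gave 1 and 1 (2.82%, against 7.6% of all genes). Same-numbered arrays deviated with correlations of -0.08 to 0.05, so the numbers were not taken to pair them. Leaving out 1 array gave 1 to 6 higher and 1 to 4 lower, with 5.87% to 16.6% of all genes called. The members' median of 0.08 went to -0.47, -0.24 and 0.24 with no normalization, median scaling and brightness, and to 0.06 to 0.10 without 1 array. The share of higher calls among all genes was 47.7%, and 0.624% and 3.69% with no normalization and median scaling.

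The 7 calls in the other lists became 14 with no background correction, on the authors' table or with trend and robust moderation, 12 with an offset of 50, 65 and 37 with no normalization and median scaling, 17 with array weights, 0 with brightness, 15 at the threshold of 0.1, 17 without both arrays and 1 to 13 without 1 array. The 2 isoform pairs at the smallest p became 1 with no normalization or median scaling. The 4 members whose probes disagreed became 0 and 1 under those scalings, 8 with no detection filter, and 3 to 4 without 1 array.

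With no normalization between arrays, changes turned to -0.0344 (Atp5g1), -0.23 (Atp5pb), -0.19 (Cox6b1), -0.17 (Cox8a), -0.23 (Ndufa6), -0.11 (Ndufv3), -0.29 (Uqcrc1), -0.63 (Cox7a2l) and -0.27 (Ndufaf7), and with median scaling to -0.0613 (Uqcrc1), -0.39 (Cox7a2l) and -0.0409 (Ndufaf7). Relative to the median of all genes, the 7 changed members named here were at 0.29 to 0.54 under both, Ndufaf7 at 0.31 and Cox7a2l at -0.0481. Compared with quantile normalization, these settings did not move all genes alike. Bright members that did not pass moved up against that median: Atp5b from 0.02 to 0.42, Cox7c from 0.09 to 0.37 and Uqcr10 from 0.03 to 0.27. The dimmer Sdhb and Sdhc moved down, from -0.24 to -0.35 and from 0.29 to 0.23. Such positions therefore cannot separate a rise from a high level. With brightness as a covariate Atp5c1 turned to 0.0838 and Cox18 to 0.10. The cause of the turns under brightness was not tested.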
